A study of Mus musculus with 20 samples.

Results

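Ribosome biogenesis genes were followed across mouse osteosarcomas of 4 p53 genotypes and in 1 osteosarcoma cell line treated with siRNA against p53. The 37 genes were given by name, in a set proposed with earlier results of these data in view, although the rule itself uses no measured value. All 37 were found among the 49585 gene IDs of the count table. The tumours came from p53R245W/+ (n = 3), p53R270H/+ (n = 5), p53R172H/+ (n = 6) and p53+/- mice (n = 4), here R245W, R270H, R172H and p53 het. All were primary tumours from C57BL/6J and 129S/SvJae mixed mice, heterozygous for the named missense allele or, in p53 het, for a p53 null allele, beside a wild-type allele. The labels give no age, sex or bone of origin, and do not say which tumours later lost the wild-type allele. Cell line 14, established from a primary osteosarcoma and named p53R245/O in the labels, with loss of heterozygosity given for the control, gave 1 library after p53 siRNA and 1 control library.

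Ribosomes are assembled in the nucleolus. RNA polymerase I copies the ribosomal RNA genes there, small nucleolar ribonucleoproteins (snoRNPs) modify the transcript at sites chosen by their guide RNAs, and large sets of assembly factors cut, fold and pack it into the small and the large subunit. The pathway is a classic target of MYC, and when it is disturbed free ribosomal proteins bind Mdm2, which stabilises wild-type p53.

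By role, 6 of the genes serve RNA polymerase I, 6 build snoRNPs, 5 encode abundant nucleolar proteins with several tasks, 9 act on the small subunit and 11 on the large subunit. They lie on 17 chromosomes. Per kilobase of annotated exon, averaged over the 18 tumours, Npm1, a histone chaperone that fills the outer nucleolus, was the most abundant with 149 CPM (counts scaled to library size) per kb. Noc2l, which escorts pre-60S particles, followed with 40.3 CPM per kb, and Nop2, a methyltransferase of the large subunit RNA, with 30.5 CPM per kb. The lowest value on this scale was that of Wdr12, a partner of Pes1 and Bop1, with 2.7 CPM per kb, and Fbl, the methyltransferase of box C/D snoRNPs, stood at 3.1 CPM per kb. The length is that of all annotated exons of a gene together, so this order depends on annotation. For Fbl it is 4209 bases, where the longest coding transcript has 1197. Without this scaling Ncl had 252 CPM, more than Noc2l with 116 CPM and Nop2 with 84.6 CPM. Between the lowest and the highest tumour the members spread from 1.71-fold for Ubtf, the factor that opens ribosomal RNA genes, to 4.91-fold for Tcof1, a Pol I cofactor.

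Some counts are less certain than others. Of the 50-base words in the longest coding transcript, 73.0% of those of Fbl, 62.7% of Ddx18, 40.9% of Npm1, 37.6% of Nop56, 22.6% of Pes1 and 19.4% of Noc2l also occur in other annotated genes, so reads can be shared with near-identical copies. In 14 members, among them Gnl3, Wdr12, Polr1a, Bysl and Dkc1, exons overlap a gene on the opposite strand, and the sources used here do not say whether strand was used in counting. In 6 members (Dkc1, Gnl3, Ncl, Nop56, Nop58 and Wdr43), of which only Ncl and Nop58 are not among those 14, lie 19 annotated snoRNA genes on the same strand.

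Total counts ran from 20.1 to 29.2 megacounts per tumour, and even the lowest member count in any tumour was 164, that of Fbl. Trp53, which encodes p53, averaged 64.8 ± 10.3 CPM in R245W, 36.4 ± 11.2 CPM in R270H, 49.0 ± 13.6 CPM in R172H and 21.7 ± 7.59 CPM in p53 het tumours (SD, n = 3, 5, 6 and 4). None of 12 osteoblast genes was at 0 in any tumour, and their sum lay between 32400 and 146871 CPM. Runx2, the master regulator of osteoblasts, lay between 159 and 481 CPM, and Alpl, bone alkaline phosphatase, between 708 and 1733 CPM. The list was not even between genotypes. Bglap had log2 folds of -3.65, -2.78 and -3.39 in R245W against p53 het, R172H and R270H, and no gene of the list was called in any contrast. The R270H titles share a code that no other library carries, and p53 het 3 and 4 are the only other tumours whose titles lack a serial number. A batch that follows the R270H code cannot be told apart from the R270H genotype. Replicate numbers here follow the order of deposit and pair no libraries. By the labels each library is a separate tumour, and the p-values rest on how tumours of 1 genotype vary.

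Across the 18 tumours the members moved largely together, and 3 single libraries from 3 genotypes gave the highest levels. In R245W 2, 36 of the 37 members lay above their own median over all tumours, with a median deviation of 0.84 on the log2 scale. In R270H 4 the same count was 36, with a median deviation of 0.60, and in p53 het 4 it was 34, with 0.56. These 3 libraries held the highest value of 14, 11 and 6 members. The 6 R172H tumours were even among themselves and on the low side, with 6 to 15 members above the median in each. In the other 15 tumours, R172H among them, 6 to 33 members lay above the median, so by this count the 3 libraries were not sharply set apart. By summed expression of the members, the other 15 tumours ranged from 2136 to 3138 CPM, against 4743 CPM in R245W 2, 4425 CPM in R270H 4 and 3676 CPM in p53 het 4.

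**Figure D1:**
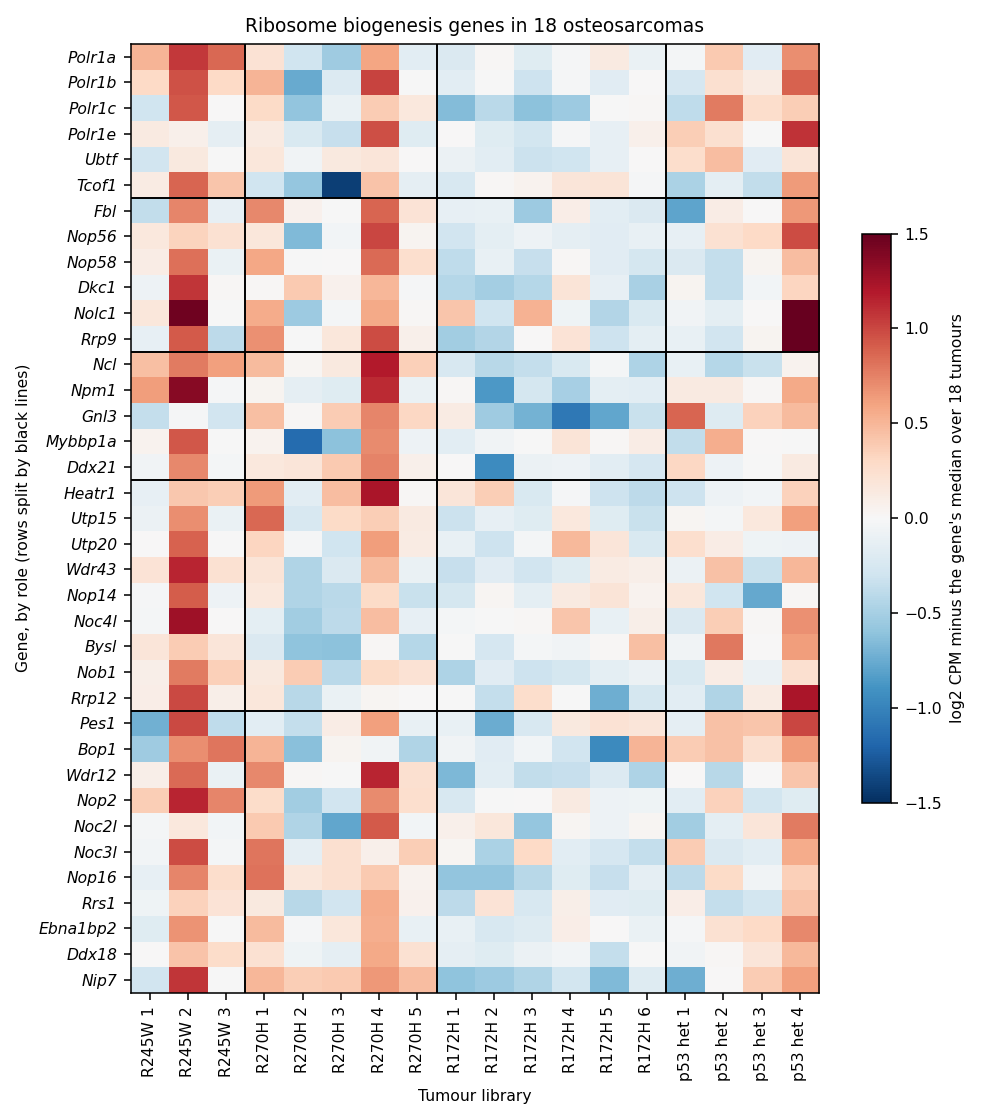
Heat map of the 37 genes (rows, by role) in 18 tumours (columns, by genotype). Colour is log2 CPM minus the gene's own median over the tumours. R245W 2, R270H 4 and p53 het 4 are red in nearly every row, and the 6 R172H columns are mostly pale blue.

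Marker genes of cell types also differed in the same libraries. The sum of 8 osteoclast genes (bone-resorbing cells of the macrophage lineage, marked by Acp5 and Ctsk) was 621 CPM in R245W 2, 275 CPM in R270H 4 and 131 CPM in p53 het 4, against 1709 to 14448 CPM in the other 15 tumours. No osteoclast gene was at 0 in any tumour. The macrophage sum was 835 to 1444 CPM in the 3 libraries and 1224 to 2302 CPM in the others. The T and NK cell sum was 3.11 to 12.03 CPM in the 3 libraries, with 5 of 10 genes at 0 in at least 1 of them. In the others it was 6.76 to 70.5 CPM. The sum of 20 proliferation genes was 2483, 1999 and 2094 CPM in these 3 libraries and 900.2 to 1962 CPM in the others. The osteoblast sum lay between 35388 and 56714 CPM in the 3 libraries, within the 32400 to 146871 CPM of the others. Skeletal muscle genes reached 6941 CPM in p53 het 4, above every other tumour. In bulk tissue, fewer cells of a type and less RNA per cell cannot be told apart. What part these differences have in the level of the members was not tested. Counts of members are also given without these 3 libraries.

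**Figure D2:**
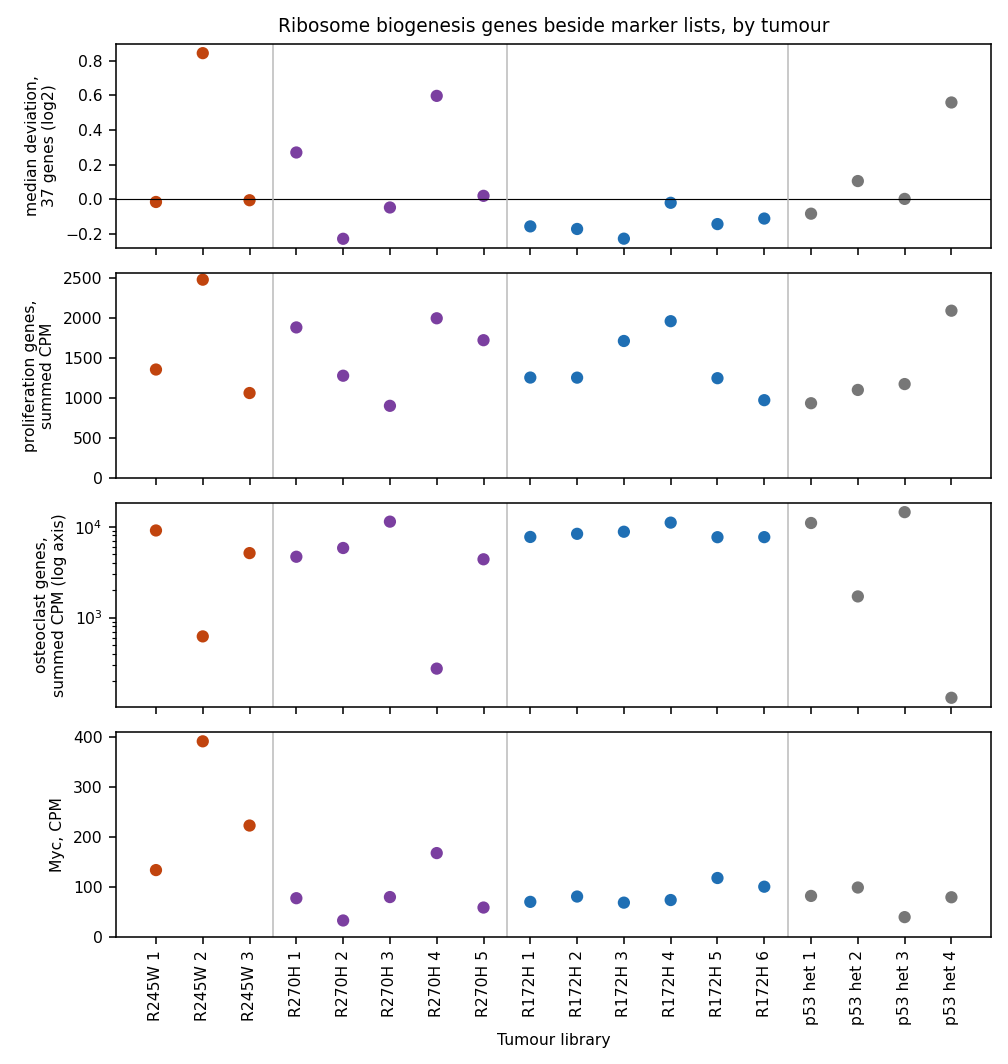
Per tumour, from top to bottom: the median deviation of the 37 genes (log2), the summed CPM of proliferation genes, the summed CPM of osteoclast genes (log axis) and the CPM of Myc. The 3 tumours highest in ribosome biogenesis genes are also the highest in proliferation genes and the lowest in osteoclast genes.

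R270H against R172H was the contrast in which single members passed the test. Ncl, Gnl3, Nip7, Nop16 and Wdr12 were higher in R270H tumours, by 0.73 to 0.93 on the log2 scale, and no member passed as lower. The edgeR quasi-likelihood test called 5 of 37 members at an adjusted p below 0.05, all higher, where 5.28% of the 20616 genes tested were called in either direction and 3.41% were called higher. By role the calls fell on nucleolar proteins (2 of 5) and large subunit factors (3 of 11). None of the 6 Pol I, 6 snoRNP or 9 small subunit genes passed. Over all members the median log2 fold was 0.32, with 32 above 0, beside a median of -0.02 over all genes, of which 51.1% lay below 0. At an unadjusted p below 0.05 there were 14 members, where 23.2% of all genes passed. Without R270H 4 the median of the members was 0.19, with 25 above 0.

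Ncl encodes nucleolin, which binds nascent ribosomal RNA and chromatin. It lies at chr1:86344719-86359400 on the minus strand (GRCm38). It was read at 312, 231, 249.7, 515 and 289.9 CPM in R270H tumours, against a lowest value of 163, a median of 184 and a highest of 220.0 CPM in R172H tumours. Every R270H tumour lay above every R172H tumour, and R270H 4 was far above the rest. The log2 fold was 0.79 ± 0.19 (SE) with an adjusted p of 0.0239 in edgeR.

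Gnl3 encodes nucleostemin, a nucleolar GTPase of dividing and stem cells. It lies at chr14:31012433-31019152 on the minus strand. It was read at 117, 87.0, 112, 144 and 107 CPM in R270H tumours, against a lowest of 40.9, a median of 56.1 and a highest of 93.8 CPM in R172H tumours. The groups overlap through 1 high R172H and 1 low R270H tumour. The log2 fold was 0.90 ± 0.21 with an adjusted p of 0.0243 in edgeR.

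Nip7 is needed to process the large subunit RNA. It lies at chr8:107056877-107060931 on the plus strand. Its values were 28.6, 26.1, 26.6, 31.8 and 27.98 CPM in R270H tumours, against a lowest of 12.7, a median of 14.3 and a highest of 17.6 CPM in R172H tumours. The groups were far apart and tight, with a log2 fold of 0.93 ± 0.24 and an adjusted p of 0.0330 in edgeR. The p53 het tumours spanned both ranges, with 12.2 and 20.3 CPM in p53 het 1 and 2 and 26.3 and 31.0 CPM in p53 het 3 and 4. Within the R270H range lay p53 het 3 and 4, whose titles, like those of R270H, lack a serial number.

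Nop16, a factor of early 60S particles at chr13:54584185-54590090 on the minus strand, stood at 34.5, 22.2, 23.2, 25.9 and 20.5 CPM in R270H tumours, against a lowest of 13.0, a median of 15.1 and a highest of 17.9 CPM in R172H tumours. No R270H value fell into the R172H range. Its log2 fold was 0.73 ± 0.19 with an adjusted p of 0.0355 in edgeR.

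Wdr12, at chr1:60069785-60098645 on the minus strand, had 49.8, 30.5, 30.1, 66.3 and 35.7 CPM in R270H tumours, against a lowest of 18.9, a median of 23.5 and a highest of 26.9 CPM in R172H tumours. The groups did not overlap, and the log2 fold was 0.86 ± 0.23 with an adjusted p of 0.0366 in edgeR. Ddx21, a helicase that links Pol I and Pol II transcription, was the only other member without overlap, so that this held for 5 of 37 members, where 4.58% of all genes did not overlap and were higher. It missed the threshold (log2 fold 0.55 ± 0.19, adjusted p = 0.0950).

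These 5 calls depended on which libraries were fitted, and they did not hold in a fit with the kind of title. The kind of title (serial number or none) does not vary within R270H or within R172H. As a covariate it is therefore estimated from the p53 het tumours alone, and it cannot show whether the calls follow the title code. With this covariate no member was called, and 1 of all genes tested was. Fitted in that way the log2 folds were 0.92 for Gnl3 (adjusted p = 0.564), 0.66 for Ncl (0.621), 0.55 for Nop16 (0.677), 0.44 for Wdr12 (0.794) and 0.11 for Nip7 (0.963). Without R172H 3 or without R270H 4 none of the 5 passed, without R172H 4 or R270H 1 only Ncl did, without R172H 1, 2 or 5 only Ncl and Gnl3 did, and without R270H 3 Ncl, Gnl3 and Wdr12 did. Leaving out R172H 6 left 4 calls, Wdr12 being lost, and leaving out R270H 5 left 4, Nip7 being lost. Without R245W 2, R270H 4 and p53 het 4 together, Ncl, Wdr12, Nop16 and Nip7 passed and Gnl3 did not (0.80, adjusted p = 0.0608), and 27 of 37 members had a fold above 0. In the same contrast 2 of 8 erythroid genes (Epb42 and Slc4a1) were called higher, and all 8 lay above 0 (median log2 fold 2.36). Of 10 macrophage genes 1 (Cd68) was called lower, while 7 lay above 0 (median 0.29). All 7 B and plasma cell genes lay above 0 (median 1.24) and 7 of 8 osteoclast genes lay below (median -0.85), with none of either list called. Summed erythroid expression was 54.5 to 1971 CPM in R270H and 56.1 to 467 CPM in R172H tumours. The macrophage sum was 835 to 2170 CPM in R270H and 1224 to 2302 CPM in R172H tumours. Their part in the result was not tested.

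**Figure D3:**
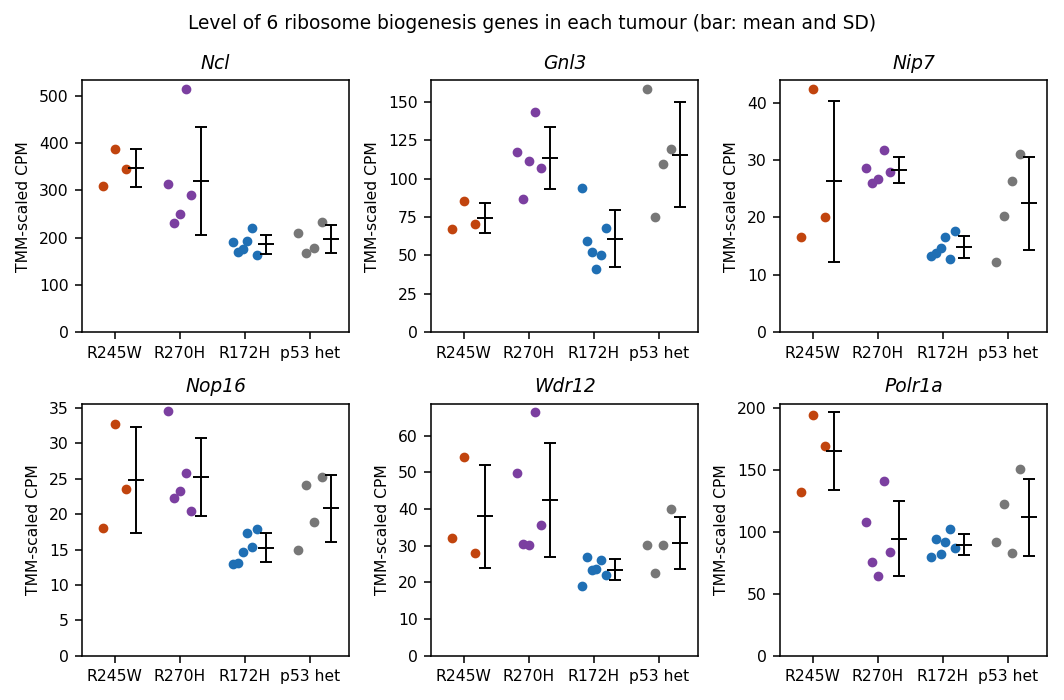
TMM-scaled CPM of 6 genes in each tumour (points), with the mean and SD of each genotype beside them. Ncl, Nip7, Nop16 and Wdr12 separate R270H from R172H without overlap, Gnl3 overlaps, and Polr1a is highest in R245W.

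R245W against R172H gave the most uniform direction and no call. All 37 members had a log2 fold above 0, with a median of 0.48 beside -0.003 over all genes, and 50.3% of all genes lay below 0. In edgeR 0 of 37 members passed, where 0.155% of all genes did. At an unadjusted p below 0.05 there were 15 members, all higher, where 10.8% of all genes passed and 5.32% were higher. In 10 of 37 members (Polr1a, Polr1b, Nop56, Ncl, Wdr43, Nob1, Wdr12, Nop2, Nop16 and Ddx18) all 3 R245W tumours lay above all 6 R172H tumours, where 2.86% of all genes did so.

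Ncl was again first by p. It had 308, 387 and 344 CPM in R245W tumours, well clear of the R172H range given above, with a log2 fold of 0.90 ± 0.21 (adjusted p = 0.137 in edgeR). Polr1a, the catalytic subunit of Pol I, had 132, 194 and 169 CPM in R245W tumours, against a lowest of 79.7, a median of 89.2 and a highest of 102 CPM in R172H tumours. Its log2 fold was 0.88 ± 0.23 (adjusted p = 0.167). Nop2 had 96.3, 164 and 124 CPM in R245W tumours, against 63.2, 72.7 and 82.1 CPM as the lowest, median and highest R172H values (0.82 ± 0.23, adjusted p = 0.198). In each of these 3 genes R245W 2 was the highest of its group, and the other two R245W tumours still lay above all R172H tumours.

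Among snoRNP genes Dkc1, the pseudouridine synthase of box H/ACA snoRNPs and of telomerase, had the lowest p over the 4 genotypes. It was read at 69.4, 154 and 74.3 CPM in R245W, at 74.2, 96.3, 76.6, 104 and 72.2 CPM in R270H, at 51.2 (lowest), 54.3 (median) and 83.8 CPM (highest) in R172H, and at 75.2, 56.9, 71.3 and 91.8 CPM in p53 het tumours. The groups overlap, and R245W 2 stands alone. Npm1 had the largest log2 fold of any member in R245W against R172H (1.06, adjusted p = 0.212), from 535, 891 and 344 CPM in R245W tumours, against a lowest of 191, a median of 299.9 and a highest of 352 CPM in R172H tumours. Here R245W 3 lay within the R172H range.

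R245W 2 carried much of the uniform direction. Without it the median log2 fold of the members was 0.19 and 30 of 37 lay above 0, and without all 3 libraries that stand apart both values were the same, with 0 members called. Both groups have serial titles, and with the kind of title as a covariate the count above 0 was again 37 of 37. Fibroblast genes, with 0 of 8 called, summed to 775 to 2828 CPM in R245W and 2073 to 12011 CPM in R172H tumours, and osteoclast genes, with 0 of 8 called, to 621 to 9082 CPM in R245W and 7660 to 11077 CPM in R172H tumours. No gene of these lists was at 0, and their part in the result was not tested.

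**Figure D4:**
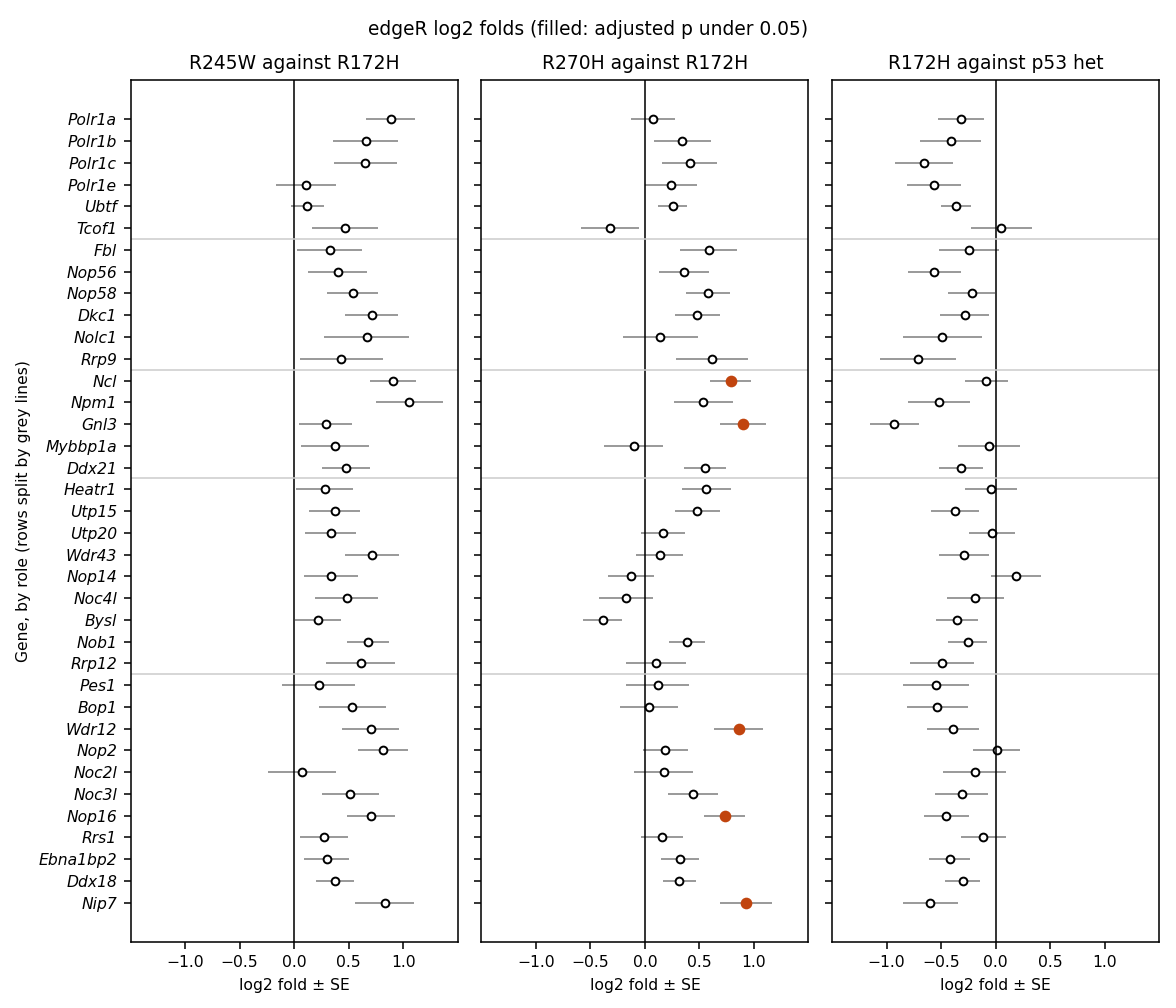
edgeR log2 fold and SE of each gene, by role, for R245W against R172H, R270H against R172H and R172H against p53 het. Filled points passed an adjusted p of 0.05. All 37 points lie right of 0 in the first panel, 32 in the second and 3 in the third, where none passed.

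R172H against p53 het ran the other way, again without a call. Of the 37 members 34 had a log2 fold below 0, where 51.7% of all genes did, and the median was -0.32 beside -0.02 over all genes. The call count was 0 of 37, where 0.0776% of all genes were called, and 8 members had an unadjusted p below 0.05, all lower, where 12.3% of all genes passed and 6.9% were lower. These 8 were Polr1c, Polr1e, Ubtf, Nop56, Gnl3, Nop16, Ebna1bp2 and Nip7. The snoRNP genes (6 of 6) and the nucleolar proteins (5 of 5) all lay below 0. R172H is the lower side both here and in the 2 contrasts above, which share its 6 libraries.

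Gnl3 had the lowest p. Beside the R172H values given above, the p53 het tumours had 158, 75.4, 109.9 and 119.6 CPM, so p53 het 2 lay within the R172H range. The log2 fold was -0.93 ± 0.22 (adjusted p = 0.124 in edgeR), and without p53 het 2 it passed with an adjusted p of 0.0343. Ubtf had a lowest value of 112, a median of 126 and a highest of 140.1 CPM in R172H tumours, against 167, 191, 123 and 159 CPM in p53 het tumours (-0.36 ± 0.14, adjusted p = 0.317). Polr1c, a subunit that Pol I shares with Pol III, had 17.5, 19.8 and 27.9 CPM as lowest, median and highest R172H values, against 21.1, 47.4, 33.0 and 35.7 CPM in p53 het tumours (-0.66 ± 0.26, adjusted p = 0.335). In each gene 1 p53 het tumour fell into the R172H range. Without the p53 het libraries that lack a serial number the median log2 fold was -0.16, with 9 of 37 above 0. It was also -0.16, with 8 of 37 above 0, without p53 het 4 alone and without R245W 2, R270H 4 and p53 het 4 together, where 0 members were called. In the same contrast 11 of 12 skeletal muscle genes (median log2 fold -1.11), 9 of 10 T and NK cell genes (-0.61) and 6 of 7 B and plasma cell genes (-0.85) lay below 0, and 8 of 8 endothelial genes (0.45) lay above. None of these marker genes was called. The summed muscle genes ran from 286 to 3148 CPM in R172H and from 304 to 6941 CPM in p53 het tumours, and the summed B and plasma cell genes from 3.26 to 14.1 CPM in R172H, with Mzb1 at 0 in a tumour, and from 8.16 to 43.04 CPM in p53 het tumours. The summed T and NK cell genes ran from 13.8 to 41.8 CPM in R172H and from 12.03 to 70.5 CPM in p53 het tumours, and the endothelial sum from 516 to 823 CPM in R172H and from 199.997 to 697 CPM in p53 het tumours. Their part in the result was not tested.

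R245W against p53 het had 26 of 37 members above 0, with a median of 0.20 beside -0.04 over all genes, of which 52.7% lay below 0. No member passed in edgeR, where 0.0728% of all genes did, and 4 had an unadjusted p below 0.05, where 12.5% of all genes did. Ncl and Nop2 did not overlap between the groups, where 8.77% of all genes did not. Ncl stood at the R245W values above, against 209, 168, 178 and 233 CPM in p53 het tumours (0.82 ± 0.23, adjusted p = 0.202). Nop2 had 66.8, 95.04, 61.4 and 65.7 CPM in p53 het tumours (0.83 ± 0.25, adjusted p = 0.216). Gnl3 pointed down, with 67.2, 85.2 and 70.5 CPM in R245W tumours (-0.64 ± 0.27, adjusted p = 0.343). The median rested on 1 tumour: without R245W 2 it was -0.15, with 10 of 37 above 0, and without all 3 libraries that stand apart it was 0.08, with 20 above 0 and 0 called. In this contrast 10 of 10 T and NK cell genes (median log2 fold -1.79), 8 of 8 fibroblast genes (-1.72) and 12 of 12 skeletal muscle genes (-1.48) lay below 0, and 8 of 8 erythroid genes (1.96) lay above, with none called. Of 12 osteoblast genes 8 lay below 0 and 4 above (median -0.18), with Bglap at -3.65 ± 1.33 (adjusted p = 0.284 in edgeR), and none was called. T and NK cell genes summed to 3.11 to 19.5 CPM in R245W tumours, where Cd3e, Cd3g, Cd8a, Nkg7 and Gzma were each at 0 in at least 1 tumour, and to 12.03 to 70.5 CPM in p53 het tumours. Fibroblast genes summed to 775 to 2828 CPM in R245W and 3683 to 8822 CPM in p53 het tumours, muscle genes to 93.8 to 1346 CPM in R245W and 304 to 6941 CPM in p53 het tumours, and erythroid genes to 138 to 799.8 CPM in R245W and 65.1 to 242 CPM in p53 het tumours. Their part in the result was not tested.

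R270H against p53 het showed no common direction, with 18 of 37 members above 0 and a median of -0.02 beside -0.01 over all genes, of which 51.3% lay below 0. The count was 0 of 37 in edgeR, where 0% of all genes were called, and 2 members (Ncl and Bysl) had an unadjusted p below 0.05, where 11.5% of all genes did. Bysl, which carries pre-40S particles to export, had 31.1, 23.9, 23.6, 36.7 and 26.96 CPM in R270H tumours, against 34.9, 63.1, 36.4 and 56.0 CPM in p53 het tumours. Only R270H 4 lay above the lowest p53 het tumours, and the log2 fold was -0.74 ± 0.20 (adjusted p = 0.195). Ncl pointed up (0.70 ± 0.21, adjusted p = 0.215), as did Heatr1, a small subunit factor that also promotes Pol I transcription, with 92.3, 53.02, 81.5, 138 and 59.9 CPM in R270H and 47.9, 56.1, 57.6 and 75.5 CPM in p53 het tumours (0.52 ± 0.25, adjusted p = 0.446). The 6 Pol I genes all lay below 0 in this contrast, with a median of -0.24. Without p53 het 3 and 4 the median over all members was 0.15, with 24 above 0, and without p53 het 4 alone it was 0.15, with 26 above 0. Without the 3 libraries that stand apart it was -0.01, with 18 above 0 and 0 called. Erythroid genes (8 of 8 above 0, median log2 fold 2.54) and osteoclast genes (8 of 8 below 0, median -0.62) also stood to 1 side, with none called, and their part was not tested.

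The mean of the 3 missense genotypes against p53 het left the members balanced, with 18 above 0 and a median of -0.005 beside -0.03 over all genes, of which 53.2% lay below 0. In edgeR 0 of 37 passed, where 0.0582% of all genes did, and 3 had an unadjusted p below 0.05 (Gnl3 at -0.53 ± 0.20, Ncl at 0.47 ± 0.18 and Bysl at -0.41 ± 0.17), where 9.74% of all genes did. Their adjusted p was 0.385, 0.399 and 0.431. Without R245W 2 the median of the members was -0.13, with 9 above 0. Without the 3 libraries that stand apart it was -0.004, with 18 above 0 and 0 called.

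R245W against R270H had 23 of 37 members above 0, with a median of 0.12 beside -0.02 over all genes, of which 51.5% lay below 0. No member passed in edgeR, where 1.24% of all genes did, and 7 had an unadjusted p below 0.05, where 18.4% of all genes did. Polr1a led with the R245W values above, against 108, 75.7, 64.1, 141 and 83.4 CPM in R270H tumours (0.81 ± 0.24, adjusted p = 0.0930), and R270H 4 alone reached the R245W range. It passed without R270H 4, with an adjusted p of 0.0447. Bysl had 41.3, 47.4 and 41.3 CPM in R245W tumours, all above the R270H values (0.61 ± 0.22, adjusted p = 0.147). Nop2 had 89.97, 52.0, 60.8, 122 and 89.1 CPM in R270H tumours, which overlap with R245W (0.63 ± 0.24, adjusted p = 0.176). Gnl3 was lower in each R245W tumour than in any R270H tumour (-0.61 ± 0.26, adjusted p = 0.223). With Bysl it made 2 of 37 members without overlap, where 13.5% of all genes had none. The direction of the median rested on R245W 2, without which it was -0.15, with 15 of 37 above 0. It was 0.32, with 30 above 0, without R270H 4, and 0.07, with 20 above 0 and 0 called, without all 3 libraries that stand apart. T and NK cell genes (10 of 10, median log2 fold -1.28) and fibroblast genes (8 of 8, median -1.23) lay below 0 in this contrast, with none called, and their part was not tested.

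A test for any difference between the 4 genotypes called 2 of 37 members, Ncl (adjusted p = 0.0326) and Gnl3 (adjusted p = 0.0464), where 2.86% of all genes were called. At an unadjusted p below 0.05 there were 12 members, where 22.1% of all genes passed. Polr1a came next with an adjusted p of 0.0901. The pair differed in pattern. Ncl averaged 347 ± 39.5 CPM in R245W, 320 ± 114 CPM in R270H, 185 ± 20.5 CPM in R172H and 197 ± 29.8 CPM in p53 het tumours. Gnl3 averaged 74.3 ± 9.61 CPM in R245W, 113.4 ± 20.4 CPM in R270H, 60.8 ± 18.6 CPM in R172H and 116 ± 34.1 CPM in p53 het tumours (SD, n = 3, 5, 6 and 4). Neither call passed with the kind of title as a covariate, which the p53 het tumours alone estimate, and neither was stable to single libraries. Of the 18 fits that each left out 1 library, Ncl failed in 7 (adjusted p up to 0.0627) and Gnl3 passed in 4. Without the 3 libraries that stand apart only Ncl passed, with an adjusted p of 0.0459.

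Promoters of the members were read because the study searched the promoters of higher genes for transcription factor motifs. The RefSeq table (GRCm38.p6) holds windows of 300 bases, 250 before to 50 after a start site, for 31 members, and for all but Tcof1, Fbl, Npm1, Rrp12, Bop1 and Rrs1. CACGTG, the E-box bound by MYC and its partners and its own reverse complement, occurred in 5 of 31 members (16.1%: Mybbp1a, Utp20, Wdr43, Pes1 and Nop2) and in 8.09% of 27025 genes. CCGGAAG on either strand, a core bound by ETS factors, occurred in 9 of 31 members (29.03%) and in 9.93% of the genes. None of the 5 members called in R270H against R172H had CACGTG in its window, and Nip7 alone of them had CCGGAAG. The windows of Ncl and Nip7 are shown as the called members with no match and with the most matches, and that of Nop2 as the one member with both motifs. Each runs 5′ to 3′ on the gene's strand, with matches in capitals, CTTCCGG being CCGGAAG on the other strand. The positions are chr1:86359406-86359705 (minus strand) for Ncl, chr8:107056627-107056926 (plus strand) for Nip7 and chr6:125131633-125131932 (plus strand) for Nop2. Start sites are those of RefSeq and can differ from the gene coordinates given above. By those coordinates Ncl begins at 86359400, so its window holds no base of the gene, and Nop2 begins at 125131909, within its window.
Ncl: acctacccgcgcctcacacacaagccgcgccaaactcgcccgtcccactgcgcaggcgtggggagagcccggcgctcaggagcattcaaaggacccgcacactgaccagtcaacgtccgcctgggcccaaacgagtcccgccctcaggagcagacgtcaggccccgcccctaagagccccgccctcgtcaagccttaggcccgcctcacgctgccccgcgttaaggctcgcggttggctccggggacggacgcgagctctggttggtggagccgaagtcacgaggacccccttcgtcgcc
Nip7: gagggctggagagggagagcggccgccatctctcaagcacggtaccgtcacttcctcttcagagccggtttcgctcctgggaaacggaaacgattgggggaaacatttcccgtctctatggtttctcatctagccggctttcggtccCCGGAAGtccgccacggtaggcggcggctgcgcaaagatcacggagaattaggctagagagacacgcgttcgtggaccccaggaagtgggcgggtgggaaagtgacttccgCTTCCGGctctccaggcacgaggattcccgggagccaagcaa
Nop2: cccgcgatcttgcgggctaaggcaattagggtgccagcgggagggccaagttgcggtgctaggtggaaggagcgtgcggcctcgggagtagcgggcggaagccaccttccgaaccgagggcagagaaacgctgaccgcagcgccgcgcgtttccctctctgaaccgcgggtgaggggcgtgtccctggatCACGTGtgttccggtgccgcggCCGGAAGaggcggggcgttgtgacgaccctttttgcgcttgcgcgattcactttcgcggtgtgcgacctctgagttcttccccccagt
In Nop2 the E-box begins 60 bases before the RefSeq start site, and no base is shared between the motifs. A match describes letters in this window and is not a measured binding site.

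Other genes of the pathway, in lists chosen with earlier results known, are described by their counts. In R270H against R172H, 2 of 39 other small subunit factors passed, both higher. Of all genes tested 5.28% were called in this contrast and 3.41% were called higher. Wdr3, a small subunit factor, had 66.2, 55.1, 74.0, 72.6 and 54.3 CPM in R270H tumours, against a lowest of 28.6, a median of 34.4 and a highest of 37.1 CPM in R172H tumours, with no overlap (0.92 ± 0.19, adjusted p = 0.0163 in edgeR). Ddx52, a helicase whose yeast counterpart Rok1 acts on the small subunit, had a fold of 0.79 ± 0.16 (adjusted p = 0.0154). Of 43 other large subunit factors 3 passed, all higher: Nol8 (0.79, adjusted p = 0.0132) and the 60S assembly factors Nsa2 (0.73, 0.0302) and Gtpbp4 (0.84, 0.0483). Of 11 other snoRNP genes 1 passed, Gar1 of the box H/ACA complex, higher by 0.70 ± 0.19 (adjusted p = 0.0388), and of 12 other Pol I genes none did, the lowest adjusted p being 0.0551 for Polr1f. Over these 4 lists 31 of 39, 33 of 43, 10 of 11 and 11 of 12 genes had a fold above 0, where 51.1% of all genes lay below 0.

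The nucleolar checkpoint list held the lowest adjusted p. Rpl5, the ribosomal protein that with Rpl11 and 5S RNA binds Mdm2, had 126, 74.5, 108, 171 and 125 CPM in R270H tumours, against a lowest of 42.6, a median of 45.2 and a highest of 60.5 CPM in R172H tumours. The ranges are apart, with a log2 fold of 1.30 ± 0.22 (adjusted p = 0.00746 in edgeR). Processed copies of ribosomal protein genes can share its reads. Heatr3, which escorts Rpl5 into the nucleus, was higher as well (0.67 ± 0.16, adjusted p = 0.0280). Thus 2 of 5 genes of the list passed, where 5.28% of all genes were called in this contrast and 3.41% were called higher. As for the members, the title code of R270H cannot be told apart from its genotype in these calls. With the kind of title as a covariate, estimated from the p53 het tumours alone, 1 gene of the whole table passed.

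In R172H against p53 het the same lists lay below 0 in 37 of 39 small subunit, 38 of 43 large subunit, 10 of 11 snoRNP, 11 of 12 Pol I and 5 of 5 checkpoint genes, and none passed. Among all genes 51.7% lay below 0 and 0.0776% passed. The lowest p of the assembly factors was that of Nufip1, which helps to build box C/D snoRNPs (-1.06 ± 0.25, adjusted p = 0.119). In R245W against R172H 33 of 39, 40 of 43, 11 of 11, 11 of 12 and 4 of 5 lay above 0, and none passed. Among all genes 50.3% lay below 0 and 0.155% passed. Gar1 had 8.92, 17.98 and 16.1 CPM in R245W tumours, against a lowest of 6.74, a median of 6.965 and a highest of 8.01 CPM in R172H tumours, all 3 above (0.998 ± 0.214, adjusted p = 0.0940). In R245W against R270H 1 of 39 small subunit factors passed, and none of the 43 large subunit, 11 snoRNP, 12 Pol I and 5 checkpoint genes did. Of all genes 1.24% passed in that contrast, so 1 call over these lists together is near the share of all genes. It was Ddx52, at 29.9, 32.2 and 27.1 CPM in R245W tumours, against 55.1, 53.3, 59.0, 84.1 and 45.2 CPM in R270H tumours, lower in every R245W tumour (-0.995 ± 0.204, adjusted p = 0.0287 in edgeR).

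Myc itself was highest in R245W tumours. It had 133, 391 and 222 CPM in R245W, 76.8, 32.2, 79.1, 167 and 58.1 CPM in R270H, 67.9 (lowest), 76.7 (median) and 117 CPM (highest) in R172H, and 81.4, 98.2, 38.9 and 78.7 CPM in p53 het tumours. All 3 R245W tumours lay above all R172H and p53 het tumours, and R270H 4 alone of the R270H tumours reached the R245W range. The test for any difference passed for Myc (adjusted p = 0.0494 in edgeR). It was 1 of 2 calls among 11 MYC family genes, where 2.86% of all genes were called. Single contrasts of Myc did not pass: 1.74 ± 0.45 for R245W against p53 het (adjusted p = 0.172), 1.56 ± 0.40 for R245W against R172H (adjusted p = 0.167) and 1.59 for R245W against R270H (adjusted p = 0.0654). In 2 of the 3 tumours highest in the members, R245W 2 and R270H 4, Myc was also the highest of its genotype, while p53 het 4 had 78.7 CPM, near its group's median. Mnt, a repressor that competes with MYC for Max, was the 1 of 11 MYC family genes called in R270H against R172H, where 5.28% of all genes were called. It was lower, at 13.2, 15.3, 17.9, 17.7 and 17.0 CPM in R270H tumours, against a lowest of 19.1, a median of 30.2 and a highest of 40.7 CPM in R172H tumours (-0.87 ± 0.20, adjusted p = 0.0212 in edgeR). Mnt was also the other gene of the list called for any difference (adjusted p = 0.0493). None of 20 proliferation genes passed in any contrast.

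The members correlated with each other across tumours. Over 666 pairs the median Pearson r of log2 CPM over 18 tumours was 0.53, from -0.26 to 0.96, and 98.2% were above 0. Against the mean of the other members r ran from 0.40 for Gnl3 and Bysl to 0.92 for Polr1b, a core subunit of Pol I. Outside the set, the genes with the most similar profile among 11773 were Nifk (r = 0.94), Cct7 (0.93), Ran (0.91), Pms2 (0.91), Tcp1 (0.91), Ptcd3 (0.90), Ppil1 (0.90), Hspd1 (0.90), Pus1 (0.90) and Qtrt1 (0.90). These values are descriptive. The points share the 3 libraries that stand apart, and they differ in genotype, title code and marker gene levels.

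Knockdown of p53 in cell line 14 left the members near their control level. Trp53 had 30.6 CPM (2242 counts) after p53 siRNA, against 94.9 CPM (6082 counts) in the control, a log2 ratio of -1.60. With 1 library per condition there is no replicate check and no test, and intervals cover counting error only. Of 37 members 0 passed a log2 ratio of 0.5 in either direction, where 1.66% of 9398 genes with at least 10 CPM did. The median log2 ratio of the members was 0.01, beside -0.02 over all genes, and 21 of 37 lay above 0, where 45.6% of all genes did.

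The largest differences were small. Tcof1 had 159.99 CPM after siRNA and 190.1 CPM in the control, a log2 ratio of -0.25 with an exact 95% counting interval of -0.29 to -0.21. Heatr1 followed at -0.22 and Npm1 at -0.20, with 1051 CPM after siRNA and 1207 CPM in the control. Ncl had 465 CPM after siRNA and 527 CPM in the control, a log2 ratio of -0.18 (-0.20 to -0.16). At the other end Polr1e, a Pol I specific subunit, had 34.0 CPM after siRNA and 29.9 CPM in the control, a log2 ratio of 0.18 (0.10 to 0.27). By role, 9 of 11 large subunit genes (median 0.12) and 5 of 6 snoRNP genes lay above 0, while 3 of 9 small subunit genes (median -0.12) and 1 of 5 nucleolar proteins did. Myc had 247 CPM after siRNA and 315 CPM in the control, a log2 ratio of -0.35. None of the other ribosome biogenesis genes passed 0.5 either.

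**Figure D5:**
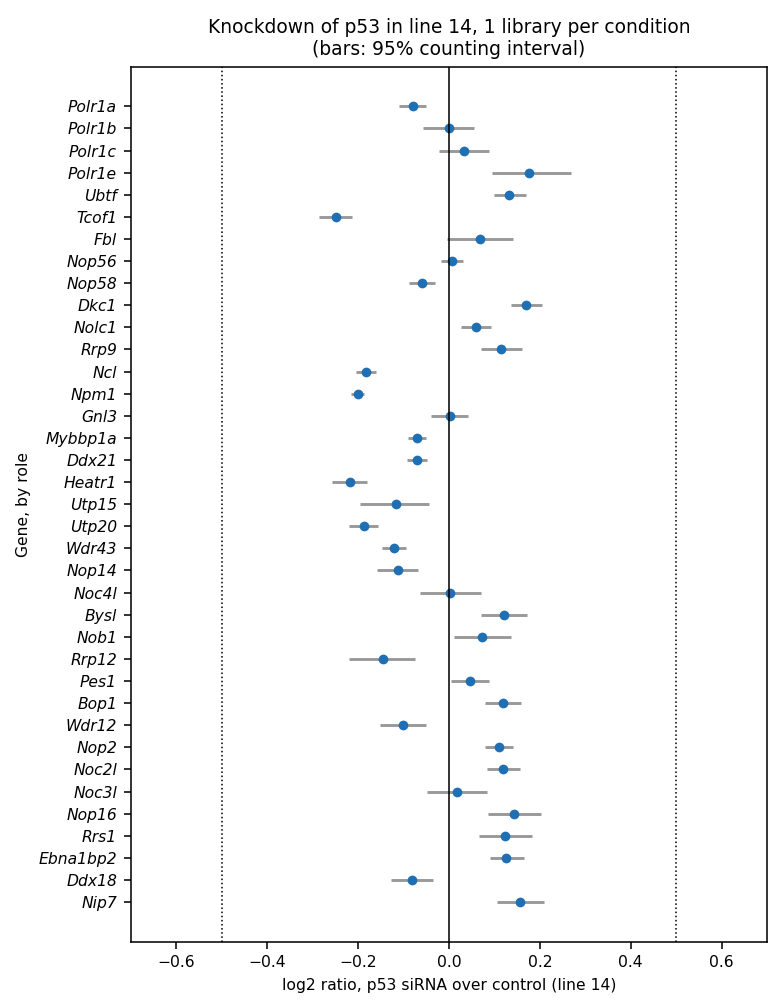
log2 ratio of p53 siRNA over control in line 14 for each gene, by role, with 1 library per condition. Bars are exact 95% counting intervals and dotted lines mark 0.5 on either side. All 37 points lie between -0.25 and 0.18.

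Compared with the tumours, the cultured line expressed these genes at a high level. In its control library 34 of 37 members lay above all 18 tumours, where 27.2% of 12473 genes did, and the exceptions were Polr1e, Gnl3 and Noc2l. The members summed to 7296 CPM after siRNA and 7565 CPM in the control, against 2161 to 4589 CPM of library totals in the tumours. Over the R245W mean the median log2 difference was 1.07, beside 0.15 over all genes. Culture against tissue and 1 line against many tumours cannot be told apart here.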

How the data were processed

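Total RNA of 18 tumours and 2 cell line libraries was sequenced. Per the submitters' processing notes, the authors aligned reads to GRCm38 with STAR 2.6.0b and used DESeq2; its version, the counting program, annotation and strand setting are not given in the sources used here. The deposited table holds raw counts, 1 column per library, and all 20 columns were used. Of 49585 gene IDs, 49326 matched a symbol. Coordinates are those of GENCODE M21 (GRCm38), and promoter windows those of RefSeq.

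Tumour counts were fitted in R 4.3.3 with edgeR 4.0.16: filterByExpr by genotype (minimum count 10, minimum total 15), which kept 20616 genes and all 37 members, TMM scaling, and a single quasi-likelihood fit of the 4 genotype means, with 14 degrees of freedom left. Benjamini-Hochberg adjustment ran over all genes tested in a contrast, and 0.05 was the limit for a call. SE is the log2 fold over the square root of F. In the text ± is SE for log2 folds and SD for CPM, and CPM of tumours are TMM-scaled, apart from those set beside the line, which use library totals, as do both CPM of the line. log2 CPM used a prior count of 2. The scripts were tested on simulated data. The line has no replicate: ratios are log2 of CPM plus 1, with exact Poisson and conditional binomial intervals at 95%, for genes with at least 10 CPM in 1 library.

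The members, though listed by a rule that uses no measured value, the other lists and the rule for naming genes were chosen with earlier results of these data known. Every member called in a contrast and the 3 of lowest p are given in full, as is 1 example per role, and of other lists the genes called or those of lowest p. Alternatives were DESeq2 1.42.0, its size factors, no low-count filter, voom of limma 3.58.1, a fit of only the groups compared, the kind of title, and leaving out each library; for the line, CPM plus 0.1 or 5, TMM and a minimum of 1 CPM. Leaving out 3 libraries together, and only p53 het 3 and 4 for R270H, were added after the data were seen.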

Additional observations from a re-analysis of the deposited data

Results flagged for a closer look

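In 36 sets of values of 1 gene, or of the members' median deviation, in 1 genotype, 3 had a highest tumour separated from the others by more than Dixon's 95% critical value, which chance alone exceeds in about 1 of 20 sets. Ncl was at 515 CPM in R270H 4, where the other R270H tumours had 231 to 312 CPM, and without this tumour the log2 fold of Ncl against R172H was 0.54 with an adjusted p of 0.0528 in edgeR. Bysl was at 49.6 CPM in R172H 6, where the other R172H tumours had 30.4 to 36.7 CPM. Nop2 was at 95.04 CPM in p53 het 2, where the other p53 het tumours had 61.4 to 66.8 CPM. No explanation of these values was tested.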

How the results depend on the processing

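No called value changed sign under any alternative tried. DESeq2 called members where edgeR called none: 1 in R172H against p53 het (Gnl3), 1 in R245W against p53 het (Ncl), 1 in R270H against p53 het (Bysl), 3 in R245W against R172H (Polr1a, Ncl and Nob1), 1 in R245W against R270H (Polr1a) and 9 in the test for any difference. Without a low-count filter R270H against R172H had 2 calls (Ncl and Gnl3) and the test for any difference 1 (Ncl). limma voom called 1 member each in R245W against R172H (Ncl), in R245W against R270H (Polr1a) and for any difference (Ncl). The share of all genes called in these fits is not given here. The counts therefore do not show whether the members gained calls more than other genes did. Without p53 het 3 and 4 the test for any difference called 1 (Ncl), as it did without R245W 2, R270H 4 and p53 het 4 together, where the median for R245W against R172H was 0.19. With the kind of title as a covariate R270H against R172H and the test for any difference had 0 calls, and the median for R245W against R270H was 0.42 with 33 of 37 above 0. That covariate is estimated from the p53 het tumours alone, and the cause was not tested. Leaving out 1 library at a time, calls ranged from 0 to 5 in R270H against R172H, from 0 to 3 for any difference, and from 0 to 1 in R172H against p53 het (Gnl3 without p53 het 2), R245W against R172H (Ncl without R270H 4) and R245W against R270H (Polr1a without R270H 4). The median ranged from -0.15 to 0.38 for R245W against p53 het and from 0.19 to 0.63 for R245W against R172H, both lowest without R245W 2. It ranged from 0.19 (without R270H 4) to 0.38 for R270H against R172H, from -0.41 to -0.16 (without p53 het 4) for R172H against p53 het, from -0.14 to 0.15 for R270H against p53 het and from -0.15 to 0.32 for R245W against R270H. DESeq2 size factors in edgeR, fits of only the groups compared and the settings of the line kept each count and median within the limits used here. No paired analysis was possible because the labels give no numbers shared between genotypes. Depth limits little here, since the lowest member count in any tumour was 164.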
